A study of Mus with 6 samples.

Results

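The genes described here encode ubiquitin-conjugating enzymes of the Ube2 family and deubiquitinating enzymes of the ubiquitin-specific protease (Usp) family, as measured in leukaemic stem cells of mice. Members were all probes of the array whose annotated symbol began with Ube2 or with Usp and a digit, apart from 4 symbols not analysed here. The rule gave 83 of the 19057 gene symbols on the array, read by 183 of the 45281 probes, of which 33 began with Ube2 (59 probes) and 50 with Usp (124 probes). It went by name alone, so it also took in Ube2d-ps, a pseudogene, Usp46os2, an opposite strand transcript, and Usp6nl, which encodes a GTPase-activating protein for Rab proteins.

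RNA came from bone marrow cells of mice with chronic myeloid leukaemia caused by BCR-ABL p210, taken 14 days after transplantation and sorted as green fluorescent, lineage-negative, Sca-1+ and c-Kit+ (LSK) cells. The groups were 3 samples deficient in the transcription factor Klf4 (KO) and 3 wild-type (WT) samples, all carrying the same oncogene and all labelled with the strain C57BL/6. No source used here states how Klf4 was deleted, the sex and age of the mice or whether each sample is a separate mouse, so p-values measure the spread between samples, which may be technical. Sequences of probes and proteins were not used here.

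Ubiquitin is activated by an E1 enzyme, handed to an E2 conjugating enzyme and joined to a target protein with the help of an E3 ligase. Some E2 enzymes place the first ubiquitin, others extend chains, and a few carry ubiquitin-like proteins such as NEDD8 or ISG15. Usp enzymes remove ubiquitin again, from histones, signalling proteins or proteins at the proteasome. In blood-forming cells, enzymes of both kinds are known to act in DNA repair, chromatin regulation and the turnover of MYC and p53.

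Before the members, 3 facts of the series bear on every value. An intensity of 32 was taken as the floor, and 15.6% to 15.9% of probes (7082 to 7214) exceeded it on each array. WT replicate 3 stood apart from the other arrays, with Pearson r of 0.29 to 0.30 across the 18270 probes tested, against 0.66 to 0.73 among the other 5 arrays, where probes are not independent replicates. The knockout could not be checked on the array, since of 3 Klf4 probes on 6 arrays 1 value exceeded 32 (51.9 in WT replicate 2). The 8 sort gate and stem cell genes with a probe (7 above 32) summed to 296.3 to 528.0 in KO arrays and 316.8 to 1272.4 in WT arrays. Of these, Flt3 read 304.3, 229.9 and 42.2 in KO arrays on ILMN_2761370, against 120.4, 864.1 and -12.3 in WT arrays. On ILMN_1216898 Kit read up to 118.1 in KO arrays and up to 381.5 in WT arrays, with 2 KO arrays and 1 WT array above 32. Another Kit probe exceeded 32 in KO replicate 1 (67.6) and WT replicate 2 (258.5). The probes of the stem cell gene Slamf1 lay below 32 throughout. The summed intensity of 10 erythroid genes, 8 of them above 32 on some array, was 4212.1 to 5243.5 in KO arrays and 2479.1 to 4811.5 in WT arrays. That of 10 neutrophil genes (9 above 32) was 3021.7 to 4494.8 in KO arrays and 4378.9 to 9207.4 in WT arrays. The Mpo probe ILMN_1249030 was its largest part on every array, with 2313.4, 1488.5 and 1422.1 in KO arrays, against 3117, 1735.2 and 7153.2 in WT arrays. S100a8 and S100a9 were instead highest in KO replicate 3, at 505.9 and 986.3, against at most 5.4 and 246.6 in WT arrays. For 7 monocyte and macrophage genes (6 above 32) the sum was 170.7 to 304.4 in KO arrays and 163.3 to 642.4 in WT arrays. Both sums were highest in WT replicate 3. The summed intensity of 6 T and NK cell genes (5 above 32) was 201.9 to 299.7 in KO arrays and 39.2 to 287.1 in WT arrays. Of these, Thy1 read 113, 187.2 and 146 in KO arrays on ILMN_2644350, against 24.4, 26 and -7 in WT arrays. In WT replicate 3, Cd3d alone read 225.4. For 4 B cell genes (2 above 32) the sum was 45.9 to 199.5 in KO arrays and 53.9 to 119.6 in WT arrays. The part of these cell types in the results below was not tested, and fewer cells of a type cannot be told apart from less RNA per cell.

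Transcripts of both families were detected on every array. Of the 183 probes, 96 exceeded 32 on at least 1 array and were tested, for 60 of the 83 symbols, and the remaining 87 probes lay at or below 32 throughout. Of the tested probes, 4 exceeded 32 on all 6 arrays, 13 on 5 and 34 on only 1. Ube2 probes lay above 32 on KO arrays in 21, 22 and 19 cases and on WT arrays in 20, 18 and 12 cases, of 59. Usp probes did so in 18, 25 and 29 cases on KO arrays and in 26, 21 and 29 cases on WT arrays, of 124. The 2 groups overlapped in both families. The lowest Ube2 share, 20.3%, was that of WT replicate 3, against 30.5% to 37.3% on the other 5 arrays.

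**Figure D1:**
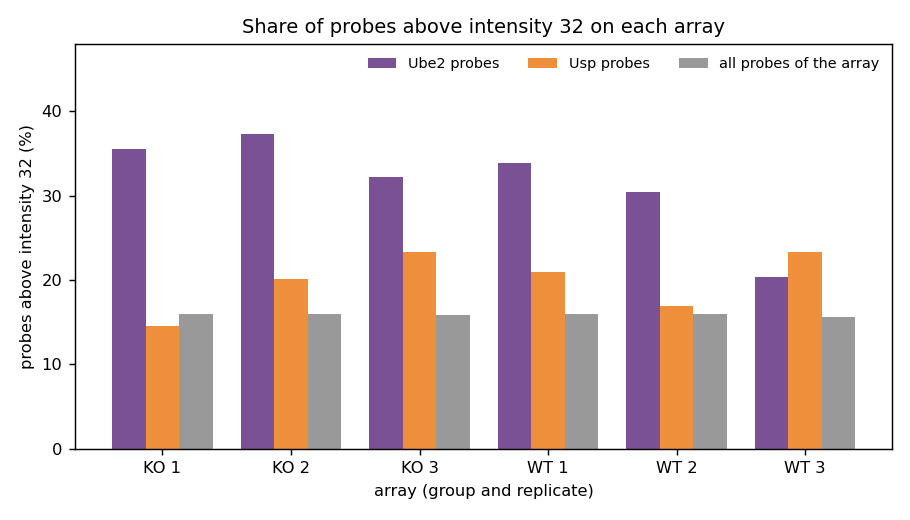
Share of probes (percent) above an intensity of 32 on each of the 3 KO and 3 WT arrays, for the 59 Ube2 probes, the 124 Usp probes and all 45281 probes. The Ube2 bar of WT replicate 3 is the lowest Ube2 bar at 20.3%, while the bars of all probes stay between 15.6% and 15.9%.

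The 23 symbols with no value above 32 included several with well-known roles. Ube2s, which extends chains for the anaphase-promoting complex, reached at most 13.1 on its single probe. Ube2a, the close relative of Ube2b in DNA damage tolerance, reached at most 28.9, and Ube2h and Ube2j1 at most -3.4 and 19.8. Among the proteases, Usp2, Usp11, Usp13, Usp21, Usp26, Usp27x, Usp30, Usp35, Usp40, Usp42, Usp43 and Usp49 stayed below the floor, as did Usp17lc, Usp17ld and Usp46os2. The others were Ube2q1, whose highest value was 31, Ube2ql1, Ube2w and Ube2cbp, an older name of a gene for an E3 ligase. For these transcripts a difference was not detectable at this signal.

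**Figure D2:**
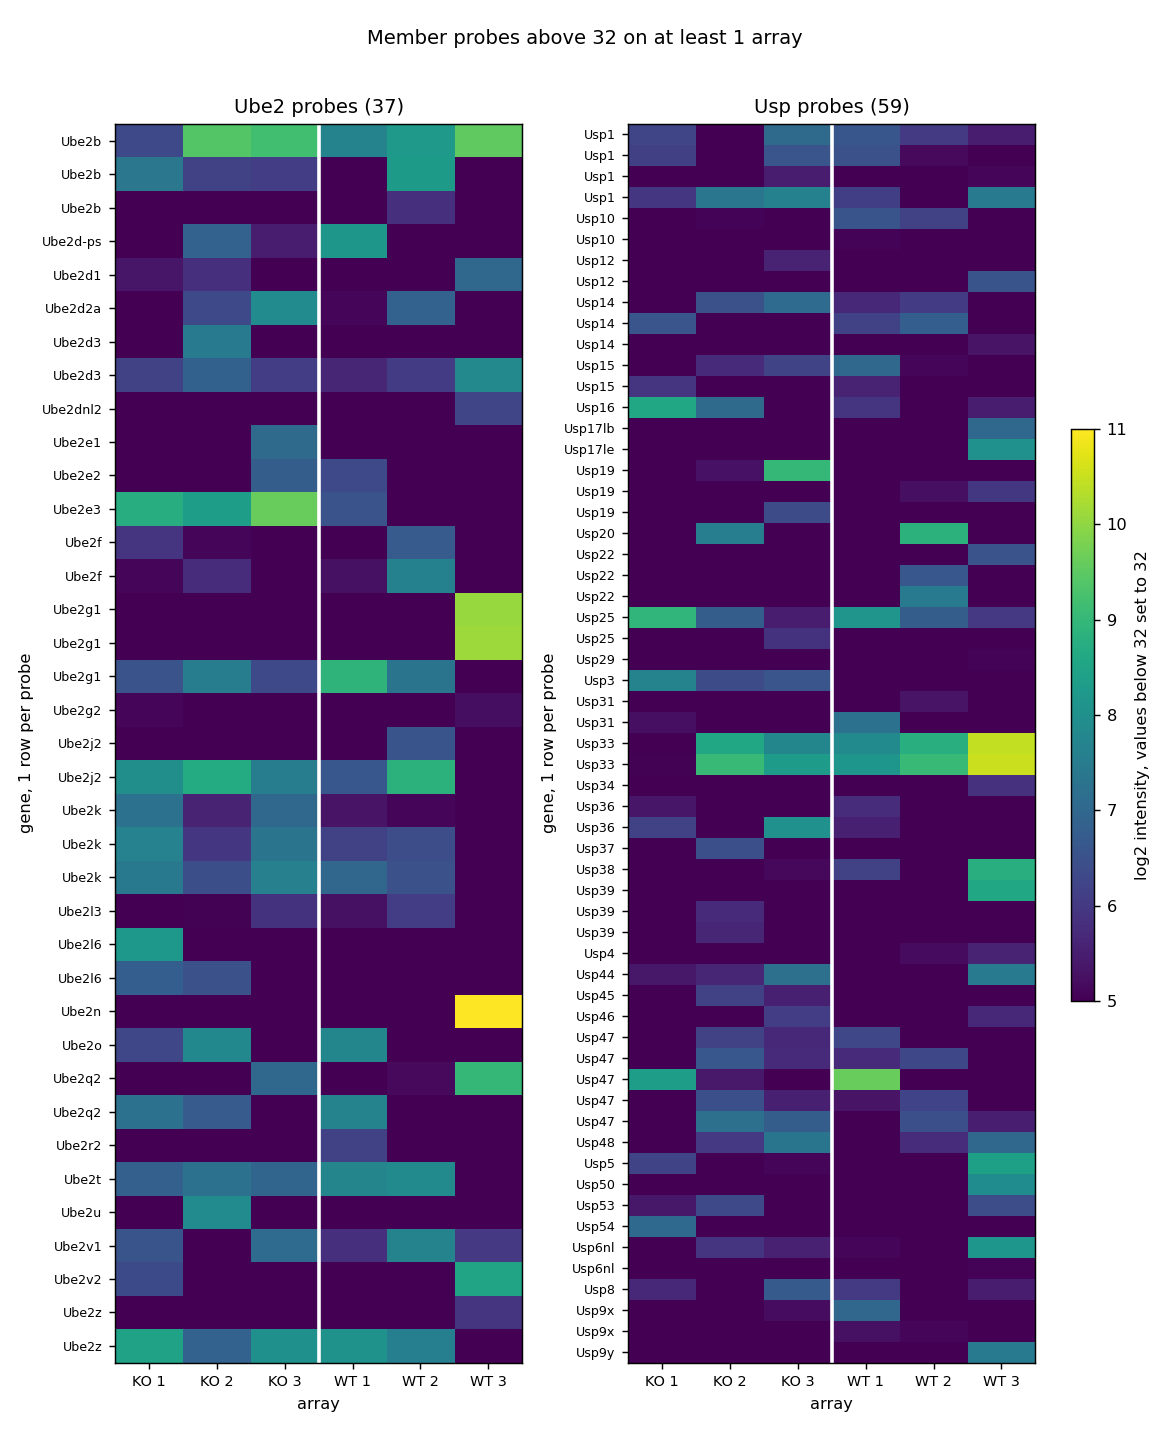
Log2 intensity, with values below 32 set to 32, of the 37 Ube2 and 59 Usp probes that exceeded 32 on at least 1 array, 1 row per probe and 1 column per array (KO left, WT right). Of these probes 34 exceeded 32 on 1 array only, 16 of them in WT replicate 3 (47.1%, beside 38.9% over all probes). On all KO arrays 19 exceeded 32, and on all WT arrays 8. These were 19.8% and 8.33% of the tested members, beside 18.6% and 8.73% of all probes tested.

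The comparison of KO with WT arrays asks which of these transcripts differ in leukaemic stem cells that lack Klf4. Of the 96 tested member probes, 45 were higher and 51 lower in KO arrays, with a median difference of -0.03 (log2), beside 45.8% higher and a median of -0.05 over all 18270 probes tested. Limma called 0 members (threshold 0.05 on the adjusted p), and the lowest adjusted p of a member was 0.715, where 0% of all probes were called. Differences ran from -2.00 to 3.39 (log2). A difference of at least 1 upward was seen for 11.5% of members and 9.49% of all probes, and one of at least 1 downward for 8.33% of members and 7.04% of all probes. The unadjusted p was under 0.05 for 3 members, all higher in KO arrays, or 3.12%, where the background over all probes was 1.46% higher and 0.575% lower. The same 3 probes, of Ube2e3, Usp3 and Ube2k, were those whose KO and WT values did not overlap, with 0 members separated downward, where the background was 2.13% upward and 0.958% downward. A share of 3 probes in 96 is near that background. With a floor of 64 the groups of the Ube2k probe overlapped. At that floor 2 of 77 members were separated upward, or 2.6% beside 2.02% of all probes, and 0 downward, beside 0.775%. An exact permutation test of 3 against 3 arrays cannot give a two-sided p below 0.1 and was not run for single probes.

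**Figure D3:**
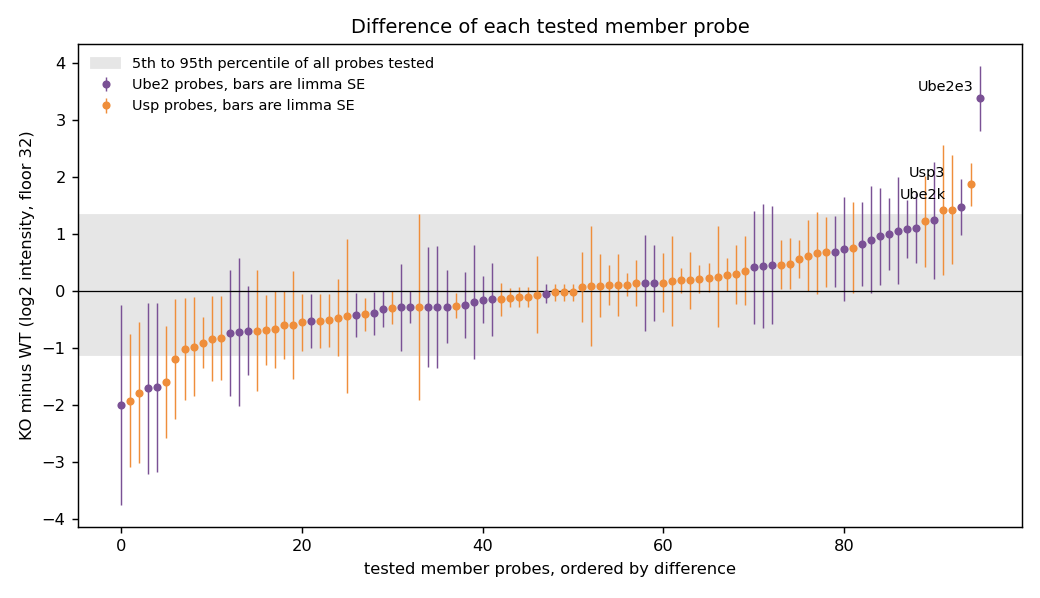
KO minus WT difference (log2 intensity, floor 32) of each tested member probe, ordered by size, with bars of 1 limma SE and grey between percentiles 5 and 95 of all probes tested (-1.12 to 1.34). The 3 labelled probes, of Ube2e3, Usp3 and Ube2k, are those whose groups did not overlap, 5 members lie above the grey band and 7 below it.

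Among the E2 enzymes that transfer ubiquitin itself, Ube2e3 had the widest separation. Its product belongs to a family of E2 enzymes with an extension before the catalytic core and is carried into the nucleus by an importin. The probe ILMN_2512042 read 424, 331.2 and 773.8 in KO arrays, against 92.5, -6.6 and -3 in WT arrays. All KO values lay above all WT values, and 1 of the 3 WT arrays exceeded the floor. The difference was 3.39 ± 0.57 (log2, limma SE, n = 3 per group), or 10.5-fold with floored values (6.59-fold with a floor of 64), and had an unadjusted p of 0.0016 and an adjusted p of 0.715 in limma. It lay between 3.04 and 3.90 when each array was left out in turn. The second Ube2e3 probe stayed between -0.5 and 13.7 on all arrays and gave no check of the first.

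The relatives of Ube2e3 did not separate the groups. Ube2e1 exceeded 32 in KO replicate 3 alone (135.8), and Ube2e2 in KO replicate 3 (108.5) and WT replicate 1 (80.3). Ube2d3, an E2 that works with a wide range of ligases, read 72.3, 116.6 and 68.2 in KO arrays on ILMN_2486783, against 50.4, 67.4 and 228.3 in WT arrays. These groups overlapped, at -0.14 ± 0.64 (log2, SE, adjusted p = 0.92 in limma), and the highest value was that of WT replicate 3, without which the difference was 0.51. On the second Ube2d3 probe 1 value exceeded 32, 180.5 in KO replicate 2. Ube2d2a of the same family read 16.1, 79.9 and 236.2 in KO arrays, against 34, 118 and 27.5 in WT arrays. Ube2d1 read 41.4, 56.8 and 18.7 in KO arrays, against 11.2, 16.1 and 128.6 in WT arrays. Ube2z, which is charged by the E1 enzyme Uba6, read 349.4, 117.4 and 259.9 in KO arrays on ILMN_2774701, against 265.8, 191.7 and 15.7 in WT arrays. The difference of that probe, 0.90 ± 0.94 (log2, SE, adjusted p = 0.715 in limma), was -0.04 without WT replicate 3. The Ube2z probe ILMN_1233328 had the opposite sign, at -0.31 ± 0.31 (log2, SE), and exceeded 32 in WT replicate 3 only (61.2). The last Ube2z probe did not exceed 7. Of the 14 tested probes of this group 9 were higher in KO arrays, with a median of 0.43, beside a median of -0.05 over all probes.

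Among the E2 enzymes that build chains, Ube2k was the clearest case of probes that ran alike. Its product makes the chains that mark proteins for the proteasome. The probe ILMN_1258782 read 154.6, 47.8 and 127.9 in KO arrays, against 40, 33.7 and -11 in WT arrays. The probe ILMN_2640742 read 203.8, 61.4 and 158.3 in KO arrays, against 71.3, 85.5 and -10.5 in WT arrays. The probe ILMN_2655066 read 173, 86.8 and 195.6 in KO arrays, against 126.4, 89.7 and 20.9 in WT arrays. All 3 probes were lowest of the KO arrays in replicate 2 and at the floor in WT replicate 3, and only the first separated the groups. Their differences were 1.48 ± 0.49, 1.11 ± 0.62 and 1.01 ± 0.63 (log2, SE, n = 3 per group), with unadjusted p of 0.027, 0.13 and 0.17 and an adjusted p of 0.715 each in limma. Without WT replicate 3 they were 1.42, 0.69 and 0.43, and with a floor of 64 they were 0.76, 0.80 and 0.67.

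Other chain-building enzymes did not separate the groups. Ube2n, which makes the chains used in DNA damage tolerance and NF-kappaB signalling, read -10.5, 3.4 and -2.8 in KO arrays on ILMN_2512541, against -4.9, -12.6 and 2034.8 in WT arrays. The one high value lay in WT replicate 3, and the second Ube2n probe did not exceed 24.7. Ube2v1, its inactive partner, read 94.6, 28.8 and 136.3 in KO arrays, against 56.9, 204.8 and 64.1 in WT arrays, and the groups overlapped. Ube2g1, an E2 that extends chains with cullin ligases and was singled out after its values were seen, read at most 25.2 in KO arrays on ILMN_2443644 and ILMN_2453620, while WT replicate 3 read 1074.8 and 1111. Its other probe was instead above 32 on the other 5 arrays, with 92.5, 183.2 and 80.5 in KO arrays, against 479.8, 158.1 and 14.9 in WT arrays. Ube2j2, an E2 of the endoplasmic reticulum membrane that serves protein quality control, read 250.7, 411 and 187.7 in KO arrays on ILMN_3096094, against 98.6, 460.4 and 21.7 in WT arrays. This probe differed by 1.24 ± 1.03 and the other Ube2j2 probe by -0.52 ± 0.48 (log2, SE). The first was 0.33 without WT replicate 3, and on the other probe 1 value exceeded 32, 94.5 in WT replicate 2. Of the 13 tested probes of the group 4 were higher in KO arrays and 9 lower, with a median of -0.29.

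Both E2 genes of DNA repair that gave a signal showed overlapping groups. Ube2b encodes the enzyme that ubiquitinates histones and the DNA clamp after damage. On ILMN_2451360 it read 80, 674.6 and 584.1 in KO arrays, against 204.3, 303.2 and 747.9 in WT arrays, and was one of the probes above 32 throughout. The difference was -0.19 ± 1.01 (log2, SE, adjusted p = 0.93 in limma) and turned to 0.81 without KO replicate 1 and 0.34 without WT replicate 3. A second Ube2b probe read 165.7, 72.3 and 68.6 in KO arrays, against 0.8, 308.4 and 18 in WT arrays, so that the 2 probes were low on different arrays. Ube2t, the E2 of the Fanconi anaemia pathway, read 115.4, 151.6 and 124 in KO arrays, against 213.5, 235.6 and 2.2 in WT arrays. WT replicates 1 and 2 lay above all KO arrays and WT replicate 3 at the floor, and the difference of 0.14 ± 0.84 (log2, SE) turned to -0.79 without WT replicate 3.

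The E2 enzymes of ubiquitin-like proteins were Ube2f, of NEDD8, and Ube2l6, of the interferon-induced modifier ISG15. Ube2f read 33.7, 54.3 and -8.9 in KO arrays, against 38.5, 200.6 and -0.2 in WT arrays on ILMN_2835443, and its difference of -0.69 ± 0.78 (log2, SE) was 0.15 without WT replicate 2. Ube2l6 read 110.5, 89.7 and 9.9 in KO arrays on ILMN_2486267, against -21.5, 12.1 and -8.4 in WT arrays. A second Ube2l6 probe read 292.5, -1.6 and 28.1 in KO arrays, against 1.5, -9.6 and 1.8 in WT arrays. All WT values of both probes lay below 32, and 2 of 3 and 1 of 3 KO arrays exceeded it. With floored values in both groups the differences were 1.09 ± 0.51 and 1.06 ± 0.94 (log2, SE, unadjusted p of 0.081 and 0.31, adjusted p of 0.715 each in limma), and they were 0.42 and 0.73 with a floor of 64. Beside it, the summed intensity of 8 interferon response genes with a probe was 1044.8, 1748.6 and 1158.3 in KO arrays, against 479.3, 435.8 and 520.7 in WT arrays, with 5 of the 8 genes above 32 on some array and Irf7, Mx1 and Oas1a below it throughout. The part of an interferon response in the Ube2l6 values was not tested.

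**Figure D4:**
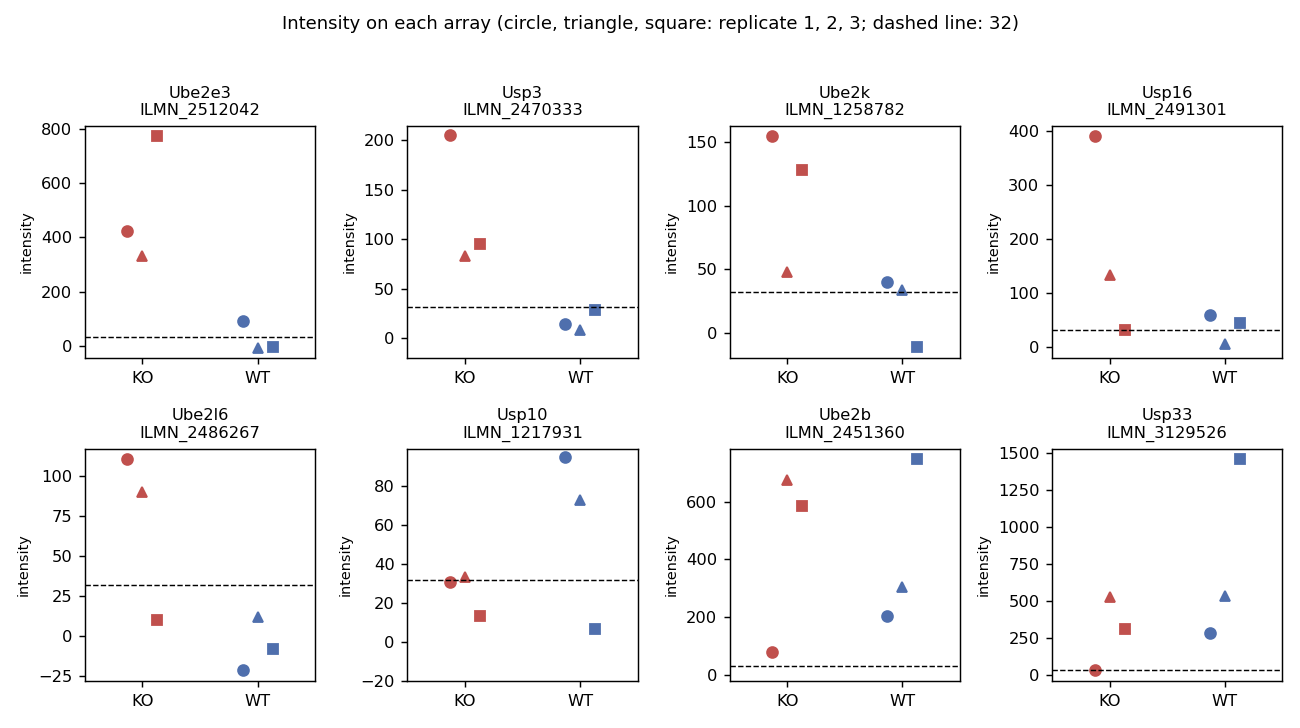
Intensity on each array (linear scale) of 8 member probes, KO left and WT right, with replicates 1, 2 and 3 as circle, triangle and square and a dashed line at 32. Ube2e3, Usp3 and Ube2k have all KO points above all WT points, while the groups overlap for the other 5.

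Among the proteases of chromatin and DNA repair, Usp3 separated the groups. Usp3 removes ubiquitin from histones, and in mice its loss is known to impair blood stem cells over time. On ILMN_2470333 it read 204.8, 82.8 and 95.3 in KO arrays, against 14, 8.3 and 29 in WT arrays. It was the one member probe above 32 on all KO arrays and on no WT array, a pattern shown by 0.575% of all probes tested. Its level was at least 3.67-fold higher in KO arrays (1.87 ± 0.38 log2, SE, n = 3 per group, unadjusted p = 0.0041 and adjusted p = 0.715 in limma), and the difference lay between 1.47 and 2.13 when each array was left out in turn. With all WT values at the floor, that group has no spread of its own in the fit. The difference was 0.87 with a floor of 64. The second Usp3 probe did not exceed 9.6 on any array.

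Usp16, which also acts on histones and is known in mice to restrain self-renewal of blood stem cells, read 390.3, 134.5 and 32.3 in KO arrays, against 60.5, 5.2 and 44.4 in WT arrays. KO replicates 1 and 2 exceeded all WT arrays and KO replicate 3 did not, at 1.43 ± 0.95 (log2, SE, adjusted p = 0.715 in limma), with 0.58 without KO replicate 1. The second Usp16 probe did not exceed 3.8. Usp1, the protease that reverses ubiquitination of the Fanconi anaemia proteins and the DNA clamp, had 4 tested probes. On ILMN_2781170 it read 61.4, 162.8 and 197.7 in KO arrays, against 68.8, 30 and 182 in WT arrays, and on ILMN_1240950 it read 76.4, 24.3 and 134 in KO arrays, against 97.3, 65.2 and 44.5 in WT arrays. All 4 Usp1 probes overlapped between the groups, with differences of 0.07 to 0.77 (log2) and adjusted p of 0.715 to 0.957, and all 4 were highest in KO replicate 3. The first of these lay between 0.17 and 1.42 with 1 array left out, and the second turned to -0.41 without KO replicate 3, -0.0026 without KO replicate 1 and -0.21 without WT replicate 3. Beside Usp1 and Ube2t, the summed intensity of 11 proliferation genes with a probe was 1984.1 to 3078.3 in KO arrays and 1931.8 to 2900.8 in WT arrays, which overlap.

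Usp22, the histone protease of the SAGA coactivator complex, exceeded 32 on no KO array. Its 3 tested probes each exceeded 32 on 1 WT array, at 92.5 in WT replicate 3 on the first and at 99.1 and 177.7 in WT replicate 2 on the others. Usp44, a regulator of the mitotic checkpoint, read 41.8, 49.9 and 148.1 in KO arrays, against 30.9, 28.2 and 176.2 in WT arrays. Usp48, another histone deubiquitinase, read 10.8, 63.4 and 160.4 in KO arrays, against 32.1, 54.3 and 127.8 in WT arrays, and both overlapped. Of the 14 tested probes of this group 10 were higher in KO arrays, with a median of 0.16.

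Among the proteases of the proteasome, endosome and endoplasmic reticulum, Usp33 gave the largest downward differences of the group. Usp33 acts on signalling receptors and their adaptors. On ILMN_3129526 it read 33, 527.9 and 312.6 in KO arrays, against 283.2, 537.9 and 1458.7 in WT arrays, and on ILMN_1218494 it read -0.9, 378.6 and 216 in KO arrays, against 233.2, 436.4 and 1399.4 in WT arrays. Both probes were lowest in KO replicate 1 and highest in WT replicate 3, and the groups overlapped. The differences were -1.78 ± 1.24 and -1.92 ± 1.16 (log2, SE, adjusted p = 0.715 each in limma), and without KO replicate 1 they were -0.58 and -0.87. The other Usp33 probes did not exceed 16.8 and gave no check of these. Usp25, which acts in protein degradation from the endoplasmic reticulum, read 491.2, 108.8 and 43.9 in KO arrays on ILMN_1226508, against 279.8, 109.2 and 64.3 in WT arrays. That probe was above 32 throughout. Its difference of 0.09 ± 1.05 (log2, SE) changed sign without KO replicate 1 (-0.86), WT replicate 2 (-0.01) or WT replicate 3 (-0.40). Another Usp25 probe exceeded 32 in KO replicate 3 only (58.9), and the remaining Usp25 probes did not exceed 4.3.

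Usp14, which trims ubiquitin at the proteasome, had 3 tested probes that did not run alike. On ILMN_2465770 it read 23.7, 89.3 and 136.9 in KO arrays, against 50.7, 65.7 and 19.6 in WT arrays. On ILMN_2562107 it read 95.7, 8.2 and -1 in KO arrays, against 71.8, 111.7 and -5.6 in WT arrays, so KO replicate 1 was the lowest KO array on one probe and the highest on the other. Usp19, an enzyme anchored in the endoplasmic reticulum membrane, read -10.5, 39 and 512.3 in KO arrays on ILMN_1213862, against values of at most -2.9 in WT arrays. Another of its probes read at most 10.8 in KO arrays, with 38 and 62.8 in WT replicates 2 and 3, so the probe differences were 1.43 ± 1.14 and -0.41 ± 0.30 (log2, SE), the first of them 0.14 without KO replicate 3. Usp5, which recycles free ubiquitin chains, read 74.7, 17.8 and 34.5 in KO arrays, against 9, 20.8 and 338.5 in WT arrays. Usp8, of endosomal sorting, read 51.8, 12 and 103.6 in KO arrays, against 65.3, 16.2 and 44.5 in WT arrays. In both the groups overlapped, and of the 13 tested probes of this group 6 were higher in KO arrays and 7 lower.

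The proteases of signalling and protein stability include regulators of p53, MYC and the survival protein MCL1. Usp10, which stabilises p53 in the cytoplasm, read 30.8, 33.3 and 13.1 in KO arrays on ILMN_1217931, against 95, 73 and 6.9 in WT arrays. WT replicates 1 and 2 exceeded all KO arrays and WT replicate 3 lay at the floor, at -0.90 ± 0.44 (log2, SE, unadjusted p = 0.093 and adjusted p = 0.715 in limma), or -1.36 without WT replicate 3. Its second tested probe exceeded 32 once, at 33.2 in WT replicate 1. Usp9x, whose known targets include MCL1, read 9.7, 21 and 36.5 in KO arrays on ILMN_2470287, against 126.3, 23.1 and -6.5 in WT arrays. Its second tested probe read at most 15 in KO arrays, with 38.3 and 33.8 in WT replicates 1 and 2. The first Usp9x difference, -0.60 ± 0.60 (log2, SE), turned to 0.06 without WT replicate 1. Usp36, a nucleolar enzyme that acts on MYC, read 72.6, 32.3 and 261.5 in KO arrays on ILMN_2491232, against 46.4, -7.5 and -7.2 in WT arrays. KO replicates 1 and 3 exceeded all WT arrays on that probe (1.23 ± 0.80 log2, SE, adjusted p = 0.715 in limma, or 0.42 without KO replicate 3). The other tested Usp36 probe read 40.9 in KO replicate 1 and 54.6 in WT replicate 1 and lay at the floor elsewhere.

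Usp47, an enzyme of base excision repair, had 5 tested probes. On 3 of them (ILMN_1249419, ILMN_1251164 and ILMN_2461154) the KO arrays read at most 8.5 in replicate 1, 72.3 to 99.1 in replicate 2 and 45.9 to 52.6 in replicate 3, and WT replicate 3 lay below 0. The probe ILMN_2952841 read 18, 148.3 and 109 in KO arrays, against 21, 88.3 and 45.6 in WT arrays. The probe ILMN_1256774 went another way, with 330.7, 42.2 and 26.1 in KO arrays, against 773.8, 32.1 and -3.9 in WT arrays. Groups overlapped on all 5 Usp47 probes, with differences of -0.28 to 0.67 (log2). Usp38 read 22.9, 11.7 and 35 in KO arrays, against 71.1, 13.5 and 431.1 in WT arrays. Of the 18 tested probes of this group 7 were higher in KO arrays and 11 lower, with a median of -0.09.

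**Figure D5:**
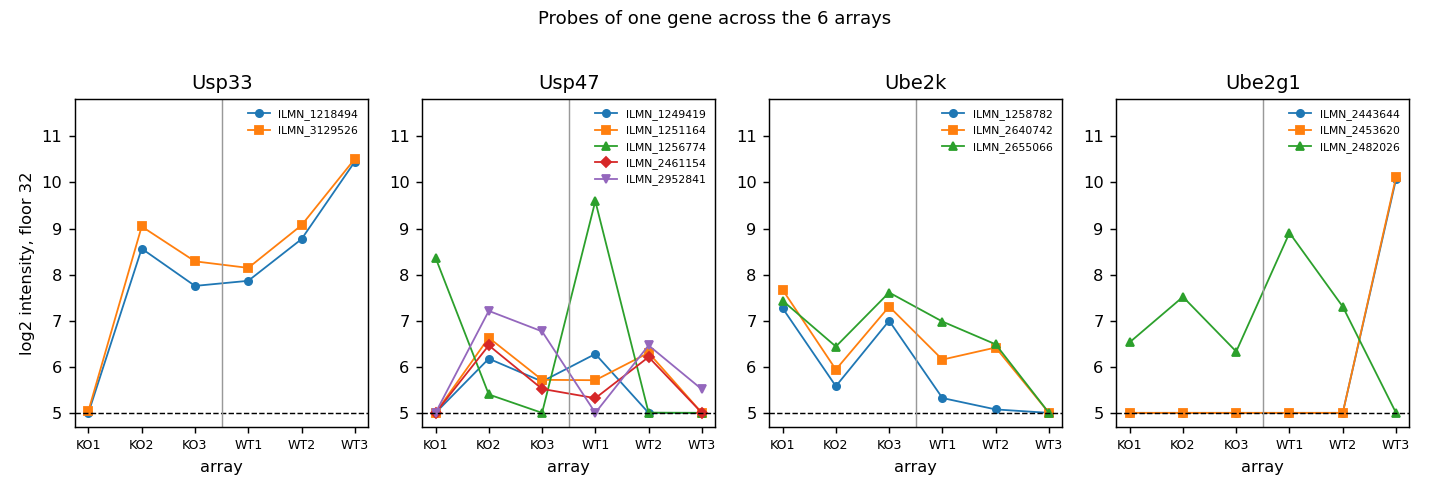
Log2 intensity (values below 32 set to 32, dashed line) of each tested probe of Usp33, Usp47, Ube2k and Ube2g1 across the 3 KO and 3 WT arrays. The Usp33 and Ube2k probes run in parallel, 1 of 5 Usp47 probes peaks at 773.8 in WT replicate 1, and 2 of 3 Ube2g1 probes exceed 32 in WT replicate 3 only.

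Usp39, a spliceosome protein without protease activity, read 28.8, 19.1 and 31.7 in KO arrays on ILMN_1228352, against 20.2, 20.8 and 380.8 in WT arrays. Its other tested probes exceeded 32 in KO replicate 2 alone, at 50.2 and 52.5, so the sign of the Usp39 difference depended on the probe. Outside the role groups, 10 further probes were tested, and Usp45, named after its values were seen, was the 1 of them higher in KO arrays, with 18.8, 72.3 and 46.2, against 9.7, 13.1 and 15.7 in WT arrays. The probes of Usp17lb, Usp17le, Usp50 and the Y-linked Usp9y exceeded 32 in WT replicate 3 only, at 131.2, 264.3, 242 and 180.4, and their other values were at most 29.

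Probes of the same gene were compared because their annotation gives them the same target. Of 24 member genes with several tested probes, 4 had all probes higher in KO arrays, 8 had all lower and 12 had probes of both signs. Of the 52 pairs of tested probes of 1 member gene 63.5% had the same sign, beside 56.3% of 6340 such pairs of other genes. Both probes lay on the same side of the floor on all 6 arrays in 15.4% of member pairs and in 13.2% of the other pairs. The widest gaps between probes of 1 gene were those of Usp19, Ube2j2, Usp39 and Usp36, at 1.84, 1.77, 1.43 and 1.37 (log2).

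WT replicate 3 was the highest array for many members. It held the highest value of 31 of the 96 tested member probes, or 32.3%, beside 29.2% of all probes tested, and the other arrays held 10 to 18 each. Of the 34 member probes above 32 on a single array 16 were above it there, or 47.1%, beside 38.9% of such probes over the whole array. Of the 8 members with a difference of -1 or less 5 exceeded 32 in WT replicate 3 only. For this last count no share over all probes was taken. Of the 13 member probes above 32 on 5 arrays, 7 missed WT replicate 3 and all 7 were of Ube2 genes (3 of Ube2k and 1 each of Ube2g1, Ube2j2, Ube2t and Ube2z). The share of such probes that missed WT replicate 3 was 53.8% for members and 79.9% for all probes. Without that array 80 member probes could be tested, 0 were called, and 4 had an unadjusted p under 0.05, or 5.0% beside 3.56% of all probes. The groups then did not overlap for 5 members upward, or 6.25% beside 3.36% of all probes, and for 3 downward, or 3.75% beside 5.1%. The 5 were Ube2e3, Ube2k, Usp3, Ube2d3 and Usp44, and the 3 were Ube2t, Usp10 and Usp9x.

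Other genes of the ubiquitin system were taken from lists of ubiquitin and its relatives, E1 enzymes, cullin scaffolds, HECT ligases and deubiquitinating enzymes outside the Usp family. Of 73 tested probes of these lists 42 were higher in KO arrays and 31 lower, with a median of 0.21, and limma called 0. The unadjusted p was under 0.05 for 3 of them, all upward, or 4.11% beside 1.46% of all probes, and 3 probes separated the groups upward, or 4.11% beside 2.13%. Rbx1, the RING subunit of cullin ligases, read 127.6, 415.1 and 245.3 in KO arrays on ILMN_1230583, against 37.3, 0.1 and -4 in WT arrays (2.80 ± 0.46 log2, SE, adjusted p = 0.715 in limma). Its other probe overlapped between the groups, with 1305.5, 497.9 and 2259.9 in KO arrays, against 821.4, 1333.9 and -5.4 in WT arrays. Of the 14 tested probes of cullin scaffolds and their RING partners 12 were higher in KO arrays. On ILMN_1224546, its probe with the smallest p, Cul3 read 177.2, 456.1 and 170.6 in KO arrays, against 28.4, 461.8 and 51.3 in WT arrays.

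Stambp and Atxn3 encode deubiquitinating enzymes of endosomal sorting and of protein quality control. Stambp read 180.9, 56.5 and 89.1 in KO arrays, against -7.1, 43.2 and -8.6 in WT arrays, and all KO values lay above all WT values (1.45 ± 0.47 log2, SE, adjusted p = 0.715 in limma). Atxn3 did so on ILMN_2813284, with 809.8, 198.6 and 67.1 in KO arrays, against 34, 21.4 and -8.5 in WT arrays (2.76 ± 0.92). The Atxn3 probe ILMN_2813286 read 432.3, 99.9 and 2.4 in KO arrays, against 2, 17.9 and 12.4 in WT arrays, and the last Atxn3 probe exceeded 32 in WT replicate 1 only (44.3). Uba7, the E1 enzyme that charges ISG15 and passes it to Ube2l6, read 1469.3, 871 and 770.6 in KO arrays, against 126.5, 83.8 and 1052.2 in WT arrays. Its groups overlapped through WT replicate 3 (2.16 ± 1.03 log2, SE, adjusted p = 0.715 in limma). Isg15 itself, which is also in the interferon list, read 190.1, 290.6 and 264.2 in KO arrays, against 229.9, 197.9 and -9.4 in WT arrays. Of E1 subunits, Sae1 of the SUMO pathway read 114.8, 57.4 and -1.8 in KO arrays on ILMN_2513895, against -5.9, 28.7 and -0.6 in WT arrays. On ILMN_2423789, above 32 throughout, Sae1 read 2006, 1909 and 1194.6 in KO arrays, against 3229.7, 1171.2 and 4102.6 in WT arrays, and its last probe exceeded 32 in WT replicates 1 and 2 only. Of the 8 tested probes of E1 genes 3 were higher in KO arrays and 5 lower, with a median of -0.44. The ligase Huwe1, whose targets include MYC, read 930, 1510.2 and 157 in KO arrays on ILMN_2494747, against 3276.2, 589 and 2452.3 in WT arrays. Wwp2 read 26.7, 22.1 and 32.3 in KO arrays on ILMN_2744245, against 116.5, 18.6 and 230.7 in WT arrays. Each was the probe of its gene with the smallest p, and other probes of the HECT ligases are not given. Ufm1 exceeded 32 in WT replicate 3 only on ILMN_1229495, at 137.4.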

How the data were processed

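RNA was measured on 6 one-colour Illumina bead arrays, and groups were taken from sample titles. The authors deposited intensity values, linear and ranging from -31 to 37007.2, made with BeadStudio per the submitters' processing notes, whose background and normalization methods no source used here states. Sorted columns matched within 5% or 0.15 at 95.5% of ranks, so no further scaling was applied, and such scaling hides a difference in total RNA. Values below 32 were set to 32 and log2 was taken. A fold is a lower bound only where every array of one group lay below 32 and every array of the other above it, and other folds depend on the floor.

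Probes were named from the platform annotation (34885 with 1 symbol, 18 with several, 10378 not listed), with symbols updated through a RefSeq gene list, which changed 0 member symbols. Each probe above 32 on at least 1 array, 18270 in all, was fitted with limma 3.58.1 (lmFit, eBayes) in R 4.3.3 with data.table (version 1.17.8), KO minus WT, with Benjamini-Hochberg adjustment over all of them and a threshold of 0.05. The fit was tested on simulated data, with recovery required only at a small spread common to all probes. Such a test does not show what could be called at the spread of these arrays. The number of arrays limits the precision, and depth is not defined for intensities. The intensity of one probe was not set against that of another.

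Members, gene lists and rules were chosen with earlier results of these data known. Named members were any called, those above 32 on 6 arrays, those whose groups did not overlap (6 per direction), the probe with the highest mean per role list, genes fixed by name, the 4 genes with the widest gap between probes of opposite sign, and up to 2 genes per further list by p. Other members are given by array values only, and probes of Ube2k, Usp33, Usp47, Ube2b and Ube2g1 were added after their values were seen. Alternatives changed the floor, scaling, filter, probe summary, variance model, replicate block and arrays.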

Additional observations from a re-analysis of the deposited data

How the results depend on the processing

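With 3 arrays per group, most probes near background and 1 divergent WT array, small differences could not be detected, and a missed threshold does not show equal levels. Under all 17 alternatives 0 member probes were called. Over all probes 1 was called without a filter, 1 with the mean of the probes of a gene and 1 with the ordinary t statistic, and 0 under the others. The member median was 0.13 with probes above 32 on at least 3 arrays, beside 0.22 over all probes, and -0.10 to 0.06 with 1 array left out. Members at an unadjusted p under 0.05 numbered 1 with a floor of 64 (1.3%, beside 1.89% of all probes) and 6 with an offset of 16 (6.25%, beside 3.79%). With trend and robust eBayes they numbered 1 of 96, beside 175 of all 18270 probes. With 1 array left out they numbered 2 to 5 (2.13% to 5.49%, beside 2.61% to 4.73% of all probes). Members whose groups did not overlap numbered 5 to 7 upward (5.32% to 7.45%, beside 3.36% to 6.4% of all probes) and 0 to 4 downward (0.0% to 4.26%, beside 1.52% to 5.1%) with 1 array left out, which has fewer values to separate. They numbered 3 downward with an offset of 16 (3.12%, beside 3.91%). No named probe was called under any alternative (lowest adjusted p 0.31), and of 973 alternative values 47 changed sign. Changes of the filter, variance model or replicate block, or taking the brightest probe, leave the difference of a probe as it is. Their values could not change sign, so 47 of 973 does not measure how stable the signs are. With the mean of the probes, a probe takes the average over the probes of its gene. The causes of the other sign changes were not tested.

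Deviations from group means of same-numbered arrays correlated at 0.032 to 0.040, and each KO array correlated best with the WT array of its number. With 3 arrays per group, these values cannot tell whether the replicate numbers in the titles pair the samples. With the replicate block 0 probes were called, 362 probes had an unadjusted p under 0.05 against 371 without it, and members again numbered 3.

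Among the named probes, sign changes (log2) with a floor of 64 were Ube2b ILMN_2497877 at -0.21, Ube2t at -0.19 and Usp47 ILMN_1249419 at -0.034. With a floor of 16 they were Ube2g1 ILMN_2482026 at 0.0562 and Usp1 ILMN_1240950 and ILMN_2487236 at -0.0608 and -0.16, and with an offset of 16 Usp1 ILMN_2487236 at -0.10 and Usp47 ILMN_1256774 at 0.16. With the mean of the probes they were Ube2b ILMN_2497877 at -0.0012, Ube2d3 ILMN_2486783 at 0.34, Ube2j2 ILMN_2494397 at 0.24, Usp14 ILMN_2562107 and ILMN_2705305 at 0.0191, Usp19 ILMN_1254051 at 0.50, Usp36 ILMN_1224255 at 0.36, Usp39 ILMN_1244799 and ILMN_2945400 at -0.18, Usp47 ILMN_1256774 at 0.12 and Sae1 at -0.0408.

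Among the named probes, the range with 1 array left out crossed 0 for Ube2b ILMN_2451360 (-0.73 to 0.81) and ILMN_2497877 (-0.0848 to 1.55), Ube2d3 ILMN_2486783 (-0.58 to 0.51), Ube2f ILMN_2835443 (-1.18 to 0.15), Ube2g1 ILMN_2482026 (-1.31 to 0.64), Ube2t (-0.79 to 0.65) and Ube2z ILMN_2774701 (-0.0365 to 1.49). It also did for Usp1 ILMN_1240950 (-0.41 to 0.63) and ILMN_2487236 (-0.0348 to 0.19), Usp25 ILMN_1226508 (-0.86 to 0.88), Usp36 ILMN_1224255 (-0.27 to 0.12), Usp9x ILMN_2470287 (-0.93 to 0.0633), and Usp47 ILMN_1249419 (-0.0856 to 0.62), ILMN_1251164 (-0.31 to 0.50), ILMN_1256774 (-1.33 to 1.25) and ILMN_2461154 (-0.25 to 0.50). Members given by array values only crossed 0 as well. Among them were Ube2d1 (-0.60 to 0.40), Ube2e2 (-0.44 to 0.59), Ube2v1 (-0.72 to 0.32) and Usp5 (-1.26 to 0.44). Further cases were Usp8 (-0.15 to 0.69), Usp44 (-0.31 to 1.08) and Usp48 (-0.43 to 0.73).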
